A study of Mus musculus with 10 samples.

Results

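The 10 genes described here, Trem2, Tyrobp, Apoe, Gpnmb, Spp1, Lpl, Fabp5, Lgals3, Cd9 and Lipa, belong to the TREM2 programme of lipid-associated macrophages. They were named as a list of the programme's known genes, by a rule that uses no measured value, but with earlier results of these data at hand. They make up 10 of the 37417 genes of the count table. All 10 were counted in every tumor and passed the filter on low counts, as did 15299 genes in all. Bulk RNA-seq was performed on 10 subcutaneous (s.c.) tumors of Panc02, a mouse pancreatic cancer cell line. In 5 tumors the injected cells carried a nontargeting guide RNA (sgNT), and in the other 5 a guide against Cda (sgCda), the gene for cytidine deaminase, which turns cytidine into uridine.

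Per the labels, all hosts were wild-type C57BL/6J mice with an age of 12 weeks, no treatment was given, and tumors were taken at day 16 after injection. Both lines had received Cas9 from a doxycycline-inducible lentivirus. The methods describe isolating single-cell clones by limiting dilution and using a pool of clones for survival experiments only. Whether the cells injected here were selected populations or 1 clone per guide is not stated. With 1 clone per guide, guide and clone could not be told apart. Host cells, macrophages included, kept an intact Cda gene in both groups. Nothing in the labels ties equal replicate numbers to a litter, cage or day. P values measure the spread between these tumors only.

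TREM2 is a surface receptor of macrophages and microglia that binds lipids and lipoproteins and signals through the adaptor TYROBP (DAP12) to the kinase SYK. Macrophages that take up lipid, for example in obese fat, atherosclerotic plaques and tumors, are known for raised levels of TREM2 together with genes for lipoprotein handling, lysosomal lipid breakdown and several surface and secreted proteins. Several of the 10 genes are also expressed by other cells of a s.c. tumor. Adipocytes express Lpl, and cancer cells can express Spp1, Lgals3, Cd9 and Fabp5, so that a level measured in bulk tissue is not a macrophage level. For the same reason, fewer cells of a type and less RNA per cell cannot be told apart.

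The groups differ by the guide that the cancer cells carried, shown here because the comparison rests on it. The sgCda guide matched the sense strand of 1 of 2 annotated Cda transcripts without a mismatch, in exon 2 of 4 (GRCm38, chr4:138351219-138351238, gene on the minus strand). Capitals mark the PAM, the 3 bases that Cas9 needs next to its target. They were read from the transcript and are not part of the guide. The nontargeting guide matched neither Cda transcript.
sgCda with PAM: tccagaaggccatctccgaaGGG
sgNT: gaacagtcgcgtttgcgact

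RefSeq promoter windows (GRCm38.p6, from 250 bases before to 50 bases after a transcription start) were at hand for 7 of the 10 genes, with 10 windows in all: 3 of Apoe, 2 of Spp1 and 1 each of Trem2, Gpnmb, Lgals3, Cd9 and Lipa. Tyrobp, Lpl and Fabp5 had no entry. Both strands were searched for 4 motifs: GAGGAAGT, bound by the myeloid factor PU.1; TGAGTCA, bound by AP-1; and CACGTG and TCACGTGA, an E-box and its extended form that MiT factors such as TFEB bind, of which the second contains the first. The PU.1 motif lay in 1 window, of Spp1, with its first base 113 bases before that start, against 3.20% of all 32851 windows. The AP-1 motif lay in the Gpnmb window, as its reverse complement from base 9 counted from the RefSeq start, against 5.20% of all windows. By the GENCODE start of Gpnmb, 49036546 on the plus strand, this match lies before the gene. The E-box was found in 7.15% and its extended form in 0.974% of all windows, and in 0 of these 10. The lines below give both matches with their flanks (chr5:104434988-104435017 and chr6:49036516-49036545, both read on the plus strand, motif in capitals). They describe letters in a window and not binding.
Spp1: aaaaccagagGAGGAAGTgtaggagcaggt
Gpnmb: caggggcaagTGACTCAtgagcacgagttg

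Libraries held 28051907 to 39484964 counts assigned to genes. Cda itself ranged from 10.1 to 14.7 counts per 1000000 (CPM, relative to library sizes scaled by TMM) among sgNT tumors. It ranged from 7.47 to 12.5 CPM among sgCda tumors, so its whole-gene count did not separate the labels (edgeR, unadjusted p = 0.0963, adjusted 0.9996). Such a count does not show whether the guide's site was edited, and host cells can add to it. In the paper, silencing in the cell lines was checked by RT-qPCR over the targeted region and by western blot. The paper also reported Cda in endothelial cells, and some in fibroblasts, of mouse tumors. On the first principal component of all genes, which held 40.7% of the variance, the tumors sgCda 4 and sgCda 3 stood at opposite ends. Macrophages were present in every tumor: their 10 markers were all detected and summed to between 4377 and 5996 CPM per sgNT tumor and between 4279 and 6160 CPM per sgCda tumor. The mean log2 CPM of those markers, used below as the macrophage score, averaged 8.31 ± 0.180 over the sgNT tumors and 8.27 ± 0.238 over the sgCda tumors (SD, n = 5 per group; two-sided exact permutation p = 0.754).

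To assess whether targeting Cda in cancer cells went along with a different level of the programme, the 10 genes were read from edgeR's quasi-likelihood test across all 15299 genes. None of the 10 passed the test. An adjusted p under 0.05 was reached by 0 of them and by 0% of all genes, and an unadjusted p below that threshold by 0 of them and by 2.50% of all genes. The values of both groups overlapped for every one of the 10, and did not overlap for 0.601% of all genes. The median log2 fold change of sgCda against sgNT was −0.033 over the 10 genes and 0.0078 over all genes tested. Of the 10, 4 had a positive and 6 a negative fold change, from −0.16 for Lipa to 0.81 for Lpl. For 8 of them the 95% interval lay within a 1.5-fold difference in either direction, as it did for 69.5% of all genes. The exceptions were Apoe and Lpl.

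**Figure D1:**
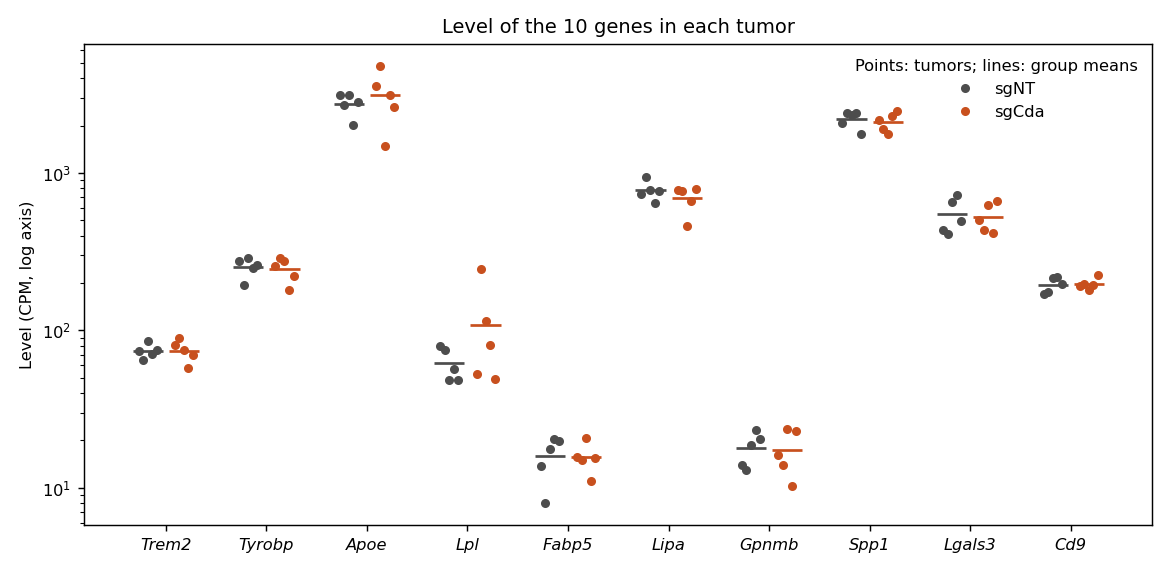
Level of the 10 genes in CPM (log axis), with 1 point for each tumor and a line at the mean of the 5 sgNT (grey) and the 5 sgCda tumors (orange). The groups overlapped for every gene, and the highest Lpl point is sgCda 2, at 245 CPM.

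**Figure D2:**
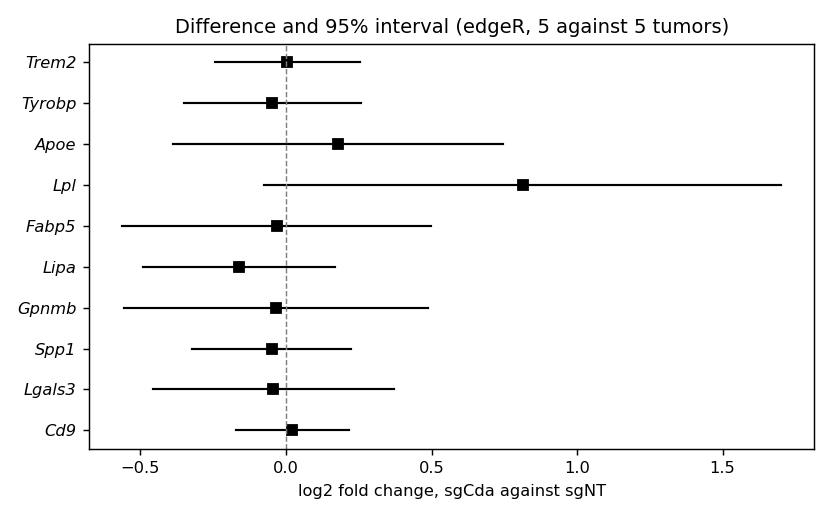
Log2 fold change of sgCda against sgNT tumors for the 10 genes (squares) with 95% intervals (lines), from edgeR on 5 against 5 tumors. Every interval spanned 0, and the widest, for Lpl, ran from −0.077 to 1.70.

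Within sgNT tumors the 10 genes spanned a wide range of levels per kilobase of exon (all annotated exons of the gene joined). The joined length was 667 bases for Tyrobp, 3567 for Fabp5 and 4946 for Trem2, and can exceed that of a single transcript. The order of the genes below depends on it. In CPM, without this division, the sgNT ranges of Trem2 (65.2 to 85.2) and Lpl (48.2 to 80.0) overlapped. Spp1 stood at 1329 ± 166 and Apoe at 1288 ± 212 CPM per kb (SD over 5 tumors), which did not differ beyond their spread. Tyrobp (380 ± 53.9) and Lgals3 (293 ± 75.9) followed, and then Lipa (114 ± 15.7) and Cd9 (95.4 ± 10.8), with overlapping ranges within each pair. Trem2 itself reached 14.9 ± 1.49 CPM per kb, apart from Cd9 above and from Lpl (5.89 ± 1.43) below. Fabp5 (4.46 ± 1.45) overlapped both Lpl and Gpnmb (2.74 ± 0.666), the lowest of the 10. Spp1 shares 309 exonic bases with Gm42793 on the same strand, so reads there may have been left uncounted. Cd9 shares 218 with Gm26728 on the opposite strand, and the strand setting of the counting was not stated. The other 8 genes share no exonic bases with another annotated gene.

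For both genes of the receptor complex the groups differed by less than the tumors of a group did. Trem2 (chromosome 17, 48346401 to 48354147, plus strand; this and all gene positions in GRCm38) was at 73.9, 65.2, 85.2, 70.2 and 75.0 CPM in sgNT tumors 1 to 5, and at 80.3, 88.8, 74.8, 57.5 and 69.5 CPM in sgCda tumors 1 to 5. The sgCda tumors held both the highest value, in sgCda 2, and the lowest, in sgCda 4, on either side of the whole sgNT range. For Trem2 the log2 fold change came to 0.0050 (95% interval −0.24 to 0.25, adjusted p = 0.9996), which bounds a difference in Trem2 between −15.5% and 19.1%. Its direction was not stable, since it turned to −0.011 with no low-count filter and to −0.0054 with the DESeq2 Wald test.

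Tyrobp (chromosome 7, 30413760 to 30417585, plus strand), the adaptor that TREM2 needs to signal, was at 274, 195, 288, 248 and 261 CPM in sgNT tumors and 257, 289, 277, 182 and 220 CPM in sgCda tumors. Its highest and lowest tumors were those of Trem2, sgCda 2 and sgCda 4. Tyrobp differed by a log2 fold change of −0.047 (95% interval −0.35 to 0.26, adjusted p = 0.9996). Across the 10 tumors the ratio of Tyrobp to Trem2 CPM stayed between 2.99, in sgNT 2, and 3.70, in sgNT 1. Both genes are expressed by macrophages, and Tyrobp by other myeloid cells and natural killer cells as well.

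Of the genes that handle lipid, Apoe and Lpl had the largest ratio of the highest to the lowest tumor, 3.22 and 5.09. Apoe (chromosome 7, 19696109 to 19699188, minus strand), which codes for an apolipoprotein that TREM2 can bind, was at 3137, 2697, 3113, 2021 and 2801 CPM in sgNT tumors. In sgCda tumors it was at 3571, 4786, 1485, 3125 and 2614 CPM, so that sgCda 2 and sgCda 3 lay above and below every sgNT tumor. For Apoe the log2 fold change came to 0.18 (SE 0.26, 95% interval −0.39 to 0.75, adjusted p = 0.9996). It was −0.028 without sgCda 2 and 0.36 without sgCda 3. The SD of log2 CPM was 0.628 among sgCda and 0.258 among sgNT tumors.

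Lpl (chromosome 8, 68880491 to 68907448, plus strand), the lipase that frees fatty acids from circulating lipoproteins, had the largest fold change of the 10 genes. It was at 80.0, 75.1, 48.2, 56.6 and 48.6 CPM in sgNT tumors and at 52.5, 245, 115, 80.1 and 48.8 CPM in sgCda tumors. The higher mean of the sgCda group, 108 ± 81.0 against 61.7 ± 14.9 CPM (SD over 5 tumors), came with the 2 highest values of all tumors, in sgCda 2 and sgCda 3. Both sgCda 1 and sgCda 5 lay within the sgNT range, and sgCda 4 was level with the highest sgNT tumor. The log2 fold change from edgeR was 0.81 (SE 0.40, 95% interval −0.077 to 1.70). It did not pass the test (edgeR, unadjusted p = 0.0695, adjusted 0.9996). A two-sided exact permutation test, which compared the group means of log2 CPM instead, gave p = 0.238. The estimate depended on the method, and was 0.57 with limma-voom (limma-voom, unadjusted p = 0.168). Without sgCda 2 the edgeR fold change was 0.27 (edgeR, unadjusted p = 0.335), and without sgCda 3 it was 0.79.

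The tumor with the highest Lpl level, sgCda 2, also had the highest level of adipocyte markers. All 6 (Adipoq, Plin1, Lep, Cidec, Cfd and Retn) were detected, and summed to between 11.5 and 119 CPM per sgNT tumor and between 12.6 and 440 CPM per sgCda tumor. All but Lep were highest in sgCda 2. Adipoq, the adiponectin gene, was at 44.5 CPM there and at 13.3 CPM or less in each of the other 9 tumors, whereas Lep, the leptin gene, was at 6.73 CPM in sgNT 2, 2.93 CPM in sgNT 1 and 2.88 CPM in sgCda 2. The second highest Lpl level, in sgCda 3, came with a low adipocyte score of 1.18 and with the highest skeletal muscle score of all tumors, 8.38, while sgCda 5 had the lowest, −2.16. With the adipocyte score as a covariate the Lpl fold change was 0.72 (edgeR, unadjusted p = 0.0159, adjusted 0.9997), and with the muscle score 0.68 (unadjusted p = 0.165, adjusted 0.988). For neither score did the difference between groups pass the test (exact permutation p = 0.778 and 0.492).

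Lipa (chromosome 19, 34492318 to 34527474, minus strand) codes for the lysosomal acid lipase, which splits cholesteryl esters and triglycerides. It was at 736, 941, 778, 646 and 766 CPM in sgNT tumors and at 774, 770, 461, 665 and 786 CPM in sgCda tumors. The value in sgCda 3 lay below all others, and the remaining 4 sgCda tumors lay within the sgNT range. Lipa differed by a log2 fold change of −0.16 (95% interval −0.49 to 0.17, adjusted p = 0.9996), and without sgCda 3 and sgCda 4 it was 0.0046.

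Fabp5 (chromosome 3, 10012548 to 10016607, plus strand), a carrier of fatty acids inside the cell, was at 13.7, 7.99, 17.6, 20.5 and 19.8 CPM in sgNT tumors and 15.7, 14.9, 20.8, 11.0 and 15.4 CPM in sgCda tumors. Here the widest spread was among sgNT tumors, with sgNT 2 the lowest of all 10. Its log2 fold change of −0.032 (95% interval −0.56 to 0.50) turned to 0.016 with limma-voom.

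None of the genes for surface and secreted proteins passed the test either. Gpnmb (chromosome 6, 49036546 to 49070929, plus strand), a transmembrane glycoprotein of lysosome-rich macrophages, was at 14.0, 12.9, 18.6, 23.1 and 20.5 CPM in sgNT tumors. In sgCda tumors it was at 16.1, 14.0, 23.6, 10.3 and 23.0 CPM, with the lowest and the highest value of all tumors in sgCda 4 and sgCda 3. The log2 fold change was −0.034 (95% interval −0.56 to 0.49). Leaving out 1 tumor moved it between −0.17, without sgCda 3, and 0.11, without sgCda 4.

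Spp1 (chromosome 5, 104435118 to 104441050, plus strand) codes for osteopontin, a secreted phosphoprotein. It was at 2060, 2392, 2320, 2408 and 1771 CPM in sgNT tumors and 2154, 1894, 1762, 2289 and 2485 CPM in sgCda tumors, a highest-to-lowest ratio of 1.41 over all 10. The log2 fold change was −0.049 (95% interval −0.32 to 0.22), and 0.0039 with limma's sample quality weights. Osteoclasts also make osteopontin. Of their 4 markers, Acp5, which macrophages express too, was at 32.3 to 57.8 CPM over the 10 tumors, Ocstamp at 0.506 to 3.25 CPM and Dcstamp at 0.380 to 1.28 CPM, while Calcr had 2 counts in all.

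Lgals3 (chromosome 14, 47367751 to 47386160, plus strand) codes for galectin-3, a sugar-binding protein that gathers at damaged lysosomes. It was at 433, 409, 657, 728 and 494 CPM in sgNT tumors and at 499, 435, 626, 418 and 663 CPM in sgCda tumors. Each group held tumors at both ends of this range. The log2 fold change was −0.043 (95% interval −0.46 to 0.37).

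Cd9 (chromosome 6, 125460266 to 125494791, minus strand), a tetraspanin of the cell surface and of exosomes, was the steadiest of the 10. It was at 171, 174, 215, 218 and 197 CPM in sgNT tumors and 190, 198, 181, 194 and 226 CPM in sgCda tumors, a highest-to-lowest ratio of 1.32. The log2 fold change was 0.021 with the narrowest interval of the 10 (95% interval −0.17 to 0.22), which bounds a difference in Cd9 between −11.3% and 16.1%.

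The tumors differed from one another more than the groups did, and the 10 genes did not move as one. For 5 of them, Trem2, Tyrobp, Gpnmb, Fabp5 and Lgals3, the 2 lowest tumors were sgCda 4 and sgNT 2, as for 9.55% of all genes. For Apoe and Lipa the 2 lowest were sgCda 3 and sgNT 4, as for 12.3% of all genes. These pairs, picked after the values were seen, are the 2 tumors at the low end and the 2 at the high end of the first principal component. The SD of log2 CPM was larger among sgCda tumors for 7 of the 10 genes, close to the 77.5% of all genes for which it was. Fabp5, Lgals3 and Cd9 had the larger SD among sgNT tumors.

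**Figure D3:**
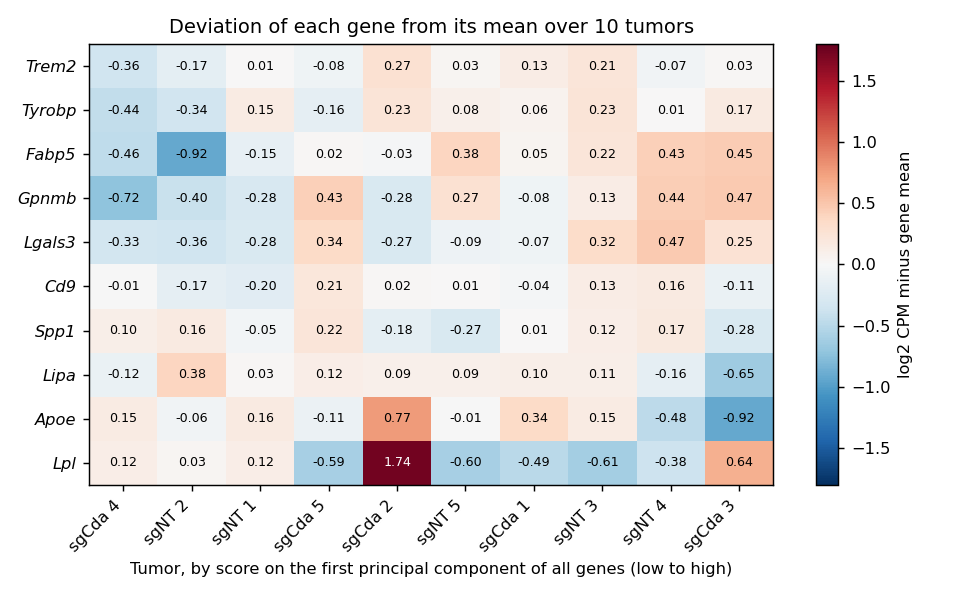
Log2 CPM of each gene minus its mean over the 10 tumors, with tumors ordered from low to high on the first principal component of all genes. Gpnmb, Fabp5 and Lgals3 were low at the left end and Apoe and Lipa low at the right end, and the darkest cell is Lpl in sgCda 2.

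To assess which of the genes followed macrophage content, a slope on the macrophage score was fitted with the group as a covariate, in log2 CPM per unit of score. Only Tyrobp passed the test, with a slope of 1.03 (SE 0.21, edgeR, adjusted p = 0.0442), where 1.60% of all genes did. The call was fragile: the adjusted p was 0.168 with the median of the markers (slope 0.84), 0.117 without sgNT 3 and sgCda 2, whose scores were farthest from the median (slope 1.16), and 0.0588 to 0.129 when any 1 of the 10 tumors was left out. Trem2 had a slope of 0.72 (SE 0.21) that did not pass (unadjusted p = 0.0059, adjusted 0.128). Both slopes were positive in every fit. Lpl (1.91), Fabp5 (1.15), Gpnmb (0.48), Lgals3 (0.40) and Apoe (0.34) had positive slopes with intervals that spanned 0. Leaving out 1 tumor moved these over wide ranges, for Lpl from 0.64, without sgCda 2, to 2.70, without sgNT 3, and for Gpnmb from 0.018, without sgCda 3, to 1.21, without sgCda 5. Cd9 (−0.0022), Spp1 (−0.50) and Lipa (−0.52) had negative ones, also with intervals that spanned 0 in the fit of all 10 tumors. Without sgNT 3 and sgCda 2 the Lipa slope was −1.41 (edgeR, unadjusted p = 0.0057, adjusted 0.118). The markers and the 10 genes come from the same libraries, and no marker is one of the 10. A slope that did not pass, here or on the scores below, does not show that a gene was independent of the score.

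The same fit on the adipocyte score called 0 of the 10 genes, and 0.235% of all genes. Lpl had the largest slope, 0.34 (SE 0.078, unadjusted p = 0.0013, adjusted 0.367), and 0.20 without sgCda 2 (unadjusted p = 0.0861). Gpnmb had a negative slope of −0.16 (unadjusted p = 0.0387, adjusted 0.993). The epithelial score came from the 5 of 6 markers of the cancer cells' lineage that passed the filter (Krt8, Krt18, Krt19, Epcam and Cdh1, but not Cldn4). It weighs them equally, though over the 10 tumors Epcam was at 0.911 to 3.43 CPM and Krt8 at 353 to 645 CPM. How well it follows cancer cell content was not tested. On this score 0 of the 10 genes were called and 0% of all genes. The largest positive slopes there were those of Lgals3, 1.07 (SE 0.34, unadjusted p = 0.0103), Gpnmb, 1.00 (SE 0.52, unadjusted p = 0.0807), and Cd9, 0.48 (SE 0.17, unadjusted p = 0.0165), each with an adjusted p of 0.723.

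**Figure D4:**
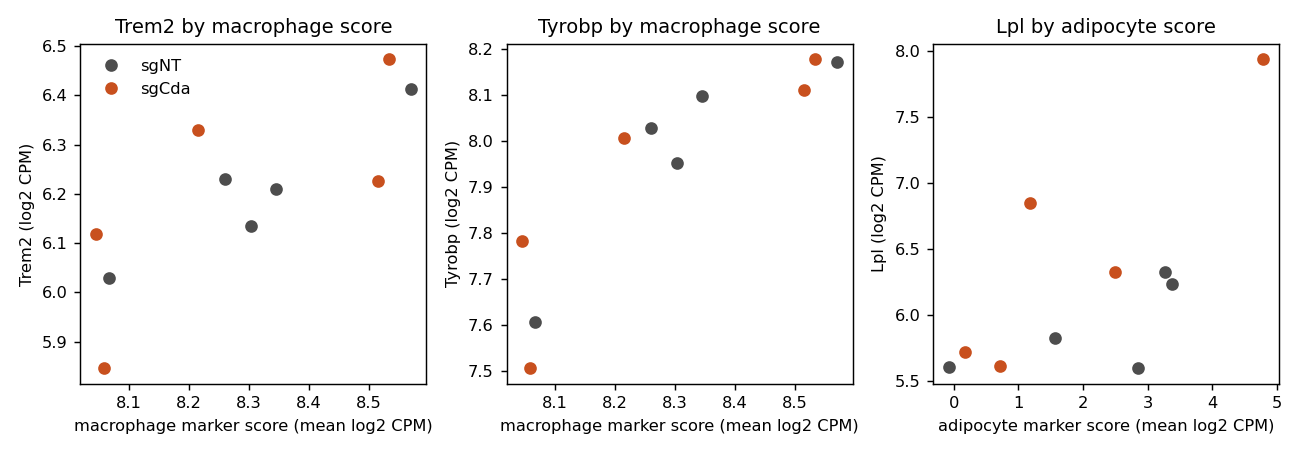
Level of Trem2 and Tyrobp against the macrophage marker score and of Lpl against the adipocyte marker score, in log2 CPM, with 1 point for each sgNT (grey) and sgCda (orange) tumor. Tyrobp and Trem2 were lowest in tumors of low macrophage score, and the Lpl point at the upper right is sgCda 2, with an adipocyte score of 4.79.

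None of the other genes of the pathway passed the test. Of 10 further genes of TREM2 signalling, all were tested, 0 were called, and 6 had positive and 4 negative fold changes with a median of 0.026. The smallest p was that of Plcg2, a phospholipase downstream of SYK, with 214 ± 29.5 CPM among sgNT and 185 ± 37.7 CPM among sgCda tumors (SD over 5 tumors; log2 fold change −0.21, edgeR, unadjusted p = 0.175). Of 17 genes of lipid and cholesterol handling, 0 were called, 4 were positive and 13 negative, and the median was −0.041. The smallest p was that of Pparg, a nuclear receptor for fatty acids (−0.22, unadjusted p = 0.135). The largest fold change of this list was that of Fabp4, a fatty acid carrier of adipocytes and macrophages (0.75, SE 0.70). Of 15 genes of the lysosome and its MiT factors, 0 were called, 6 were positive and 9 negative, and the median was −0.011, with the smallest p for Cd63, a lysosomal tetraspanin (0.11, unadjusted p = 0.295). Of 16 other markers of lipid-associated macrophages, 0 were called, 10 were positive and 6 negative, and the median was 0.074. There the smallest p was that of Axl, a receptor for apoptotic cells (−0.12, unadjusted p = 0.116), and the lowest fold change was that of Mmp12, a macrophage elastase (−0.42, SE 0.27). None of the 58 genes of these 4 lists had an unadjusted p under 0.05.

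The genes whose pattern over the 10 tumors was most like each of the 10 were different sets, ranked by Pearson r of log2 CPM among 8878 genes of sufficient level. These r values describe tumors that share library and depth, and they were picked as the highest of many. Trem2 was most like Hexa (r = 0.97), a lysosomal hexosaminidase, C1qb (0.95), a complement gene of macrophages, and Ggh (0.95). Tyrobp was most like Cotl1, Twf2 and Coro1a (0.96, 0.96 and 0.95), genes of the actin cytoskeleton, of which Coro1a is typical of leukocytes. Lpl was most like Cd36 (0.83), Fabp4 (0.81) and Car3 (0.80), genes of high level in fat tissue.

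Gpnmb was most like Wdr74 (0.99), Lgals1 (0.98) and Cdk4 (0.98), the last a cell-cycle kinase. Lgals3 was most like Psph (0.98), Kcmf1 (0.97) and Eif4ebp1 (0.97), and Fabp5 like Sssca1 (0.96), Gzmf (0.93) and ENSMUSG00000074660 (0.92). Apoe was most like Ctso (0.98), a cysteine cathepsin, Tmcc3 (0.96) and Ppfia4 (0.95), and Lipa like Twsg1 (0.97), Slc44a1 (0.97) and Itgb5 (0.97). Spp1 was most like Prune2, Hspa4l and Rdh10 (0.91, 0.91 and 0.90), and Cd9 like St7l (0.96), Ino80c (0.93) and Anapc16 (0.92). No gene stood in the top 3 of more than 1 of the 10.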

How the data were processed

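Total RNA of tumor tissue was extracted by the authors with TRIzol, and stranded libraries of polyadenylated RNA were sequenced and mapped to GRCm38 with TopHat and Bowtie2. The deposited values are raw counts per Ensembl gene, made by the authors with HTSeq, which leaves out reads that fit several places or genes. Its strand setting and annotation release are not given in the sources used here. The 5 HTSeq summary lines were left out. Reads that HTSeq assigned to no counted feature made up 10.3% to 18.4% of uniquely aligned reads. They need not lie outside genes, since the type of feature counted is not given either.

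The 10 genes and the lists of other genes were chosen with earlier results of these data known. Every one of the 10 is named. From each pathway list the gene with the smallest p, and for each of the 10 the 3 genes of highest r (mean log2 CPM of at least 4), were named by rule. Fabp4 and Mmp12 were named after their values were seen. Groups came from the sample titles.

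Counts were filtered with filterByExpr (minimum count 10, minimum total 15), scaled by TMM and tested with edgeR's quasi-likelihood test (edgeR 4.0.16, R 4.3.3), all 10 tumors and no covariate, with Benjamini-Hochberg adjustment over 15299 genes. Exact permutation tests used all 252 assignments of the tumors, with a smallest possible p of 0.00794. Marker scores are means of log2 CPM (prior count 2), and the slopes are edgeR tests with the group as a covariate. Alternatives were DESeq2 1.42.0, limma-voom 3.58.1, other scalings and filters, a replicate block, marker scores as covariates and leaving tumors out. The fits were run on simulated data to check their estimates and false calls. A true difference or slope can still fail the adjusted test with 10 tumors. A count of 3 equals 0.0760 to 0.107 CPM in these libraries. No 2 libraries of the same group were alike within sampling noise. Promoter windows came from RefSeq and gene positions from GENCODE, both of GRCm38.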

Additional observations from a re-analysis of the deposited data

Results flagged for a closer look

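For each of the 10 genes, Cda and 12 cell type marker scores, the 5 tumors of each group were searched for a value far from the rest (a gap to the nearest tumor of more than 0.71 of the group's range). Chance gives about 1 such value in 20 groups of values, and 46 were searched. None was found for the 10 genes or Cda, and 3 were found among the scores. The neutrophil score was 2.05 in sgCda 3 and 3.34 to 3.72 in the other sgCda tumors. The T cell score was 5.80 in sgNT 3, the tumor with the highest macrophage score, and 5.11 to 5.27 in the other sgNT tumors. The keratinocyte score, which rested on Krt10 alone since the other 4 markers did not pass the filter, was 3.81 in sgNT 4 and 2.05 to 2.33 in the other sgNT tumors.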

How the results depend on the processing

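None of the 10 genes (0) passed the adjusted threshold between sgCda and sgNT tumors in any of 23 alternatives, and their median log2 fold change stayed between −0.061 and 0.065. Across 20 alternatives the same held for all genes. The genes at an unadjusted p under 0.05 numbered 382 of 15299. They were 830 of 26302 with no filter beyond 1 count, 590 of 26302 with the DESeq2 Wald test and 719 of 15299 with sample quality weights. Leaving out 1 tumor gave from 280 of 15499, without sgNT 2, to 747 of 15377, without sgCda 3. Of the 10 genes, Lpl alone reached an unadjusted p under 0.05, without sgCda 1 (log2 fold change 0.99), without sgCda 5 (1.00) and with the adipocyte score as a covariate (0.72), and it was 0.25 with sample quality weights.

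Fold changes near 0 changed sign. Trem2 was −0.011 with no filter, −0.0054 with DESeq2, −0.0039 with limma-voom and −0.045 with the muscle score as a covariate. Fabp5 was 0.016 with limma-voom, 0.0057 with quality weights and 0.016 with the macrophage score as a covariate, and Spp1 was 0.0039 with quality weights. Without sgCda 3 and sgCda 4, Tyrobp was 0.012 and Lipa 0.0046. Leaving out 1 tumor moved Trem2 from −0.065 to 0.085, Tyrobp from −0.13 to 0.045, Apoe from −0.028 to 0.36, Gpnmb from −0.17 to 0.11, Spp1 from −0.12 to 0.0096, Fabp5 from −0.20 to 0.072, Lgals3 from −0.14 to 0.078 and Cd9 from −0.031 to 0.059. The causes were not tested.

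With the replicate block, Trem2 was −0.0050 and Fabp5 0.015, and 0 of the 10 genes and 0 of all genes were called, with 325 genes at an unadjusted p under 0.05. Tumors of equal number did not deviate together in all pairs (r = −0.028, −0.024, 0.33, −0.43 and 0.34), so the numbers were not taken to pair them, and 2 of 5 sgNT tumors were most like the sgCda tumor of their number.

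On the macrophage score, the 1 call, of Tyrobp, became 0 with the median of the markers and 0 without the 2 tumors of farthest score, and it was 0 in each of the 10 fits without 1 tumor. It remained with DESeq2 size factors. The Apoe slope was −1.41 without those 2 tumors and ran from −0.70 to 1.05 without 1 tumor, that of Cd9 from −0.19 to 0.18, of Lpl from 0.64 to 2.70, of Fabp5 from 0.59 to 1.53, of Gpnmb from 0.018 to 1.21, of Lgals3 from 0.14 to 0.89, of Spp1 from −0.78 to −0.36 and of Lipa from −0.95 to −0.16. Without those 2 tumors Lipa had a slope of −1.41 (edgeR, unadjusted p = 0.0057) and Fabp5 of 1.93 (unadjusted p = 0.0342), neither with an adjusted p under 0.05. The adipocyte and epithelial scores called 0 of the 10 genes in every fit. With 5 tumors a group, the 95% intervals of the fold changes had a median width of 0.74 on the log2 scale over the 10 genes (0.56 over all genes). These intervals are not adjusted for the number of genes tested, so they do not give the smallest difference that would be called. An estimate as large as 0.81, for Lpl, had an adjusted p of 0.9996 (edgeR).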
